A study of Mus musculus with 4 samples.

Results

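Genes of the class I antigen presentation route were examined in bulk RNA from mouse pyloric stomach, namely B2m, Tap1, Tap2 and H2-D1, 4 of the 2701 genes in the authors' deposited table. They were chosen by gene symbol, and each of the 4 had a row; the table holds the genes with an adjusted p of at most 0.05 between genotypes, so having a row already means a difference. All mice were C57BL/6, carried floxed alleles of both Hippo kinases (Lats1fl/fl;Lats2fl/fl) and were sampled 8 weeks after tamoxifen. The 2 libraries called WT had no Cre, and the 2 libraries called Lats1/2iΔLgr5 came from mice that also had the tamoxifen-inducible Lgr5-CreER, which acts in Lgr5-positive stem cells at the gland base and passes the deletion to their progeny. RNA was taken from 10 µm cryosections of flat-frozen stomach, so unrecombined epithelium and stroma are in every library. The labels do not say whether duplicates are separate mice, and p-values measure only the spread between these libraries.

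MHC class I molecules sit on nearly all nucleated cells and show peptides from cytosolic proteins to CD8 T cells. A polymorphic heavy chain, here H2-D1, pairs with the invariant light chain beta-2-microglobulin, made from B2m, and with a peptide. The peptides are cut by proteasomes and pumped into the endoplasmic reticulum by a transporter built from the proteins TAP1 and TAP2, which the chaperone tapasin holds next to the empty class I molecule. Interferons raise the transcription of most of these genes, and the transactivator NLRC5 acts on class I promoters through a conserved module of boxes called S, X and Y.

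The 250 bases before the RefSeq start site are shown for the members with an entry, because these genes moved together across the libraries and the boxes named above lie in such sequence. All are on the plus strand of GRCm38.p6: chr2:122147437-122147686 for B2m, chr17:34187306-34187555 for Tap1 and chr17:35262844-35263093 for H2-D1. Tap2 had no entry. By the GENCODE gene spans, the H2-D1 window lies inside H2-D1 itself, which begins at 35262730 there. The Tap1 and B2m windows lie inside the oppositely transcribed genes Psmb9 and Patl2. Positions below are counted from the RefSeq start site. Capitals mark letter matches on either strand to the motifs described after the sequences.
B2m: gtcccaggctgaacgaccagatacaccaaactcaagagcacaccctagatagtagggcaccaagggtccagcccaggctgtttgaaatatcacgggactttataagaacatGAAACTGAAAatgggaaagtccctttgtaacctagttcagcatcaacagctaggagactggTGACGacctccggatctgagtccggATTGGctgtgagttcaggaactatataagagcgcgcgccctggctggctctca
Tap1: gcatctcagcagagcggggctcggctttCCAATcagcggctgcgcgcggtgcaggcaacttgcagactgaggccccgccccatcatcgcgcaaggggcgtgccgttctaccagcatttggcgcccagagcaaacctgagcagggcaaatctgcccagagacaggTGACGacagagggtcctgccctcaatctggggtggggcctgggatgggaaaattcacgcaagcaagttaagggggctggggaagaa
H2-D1: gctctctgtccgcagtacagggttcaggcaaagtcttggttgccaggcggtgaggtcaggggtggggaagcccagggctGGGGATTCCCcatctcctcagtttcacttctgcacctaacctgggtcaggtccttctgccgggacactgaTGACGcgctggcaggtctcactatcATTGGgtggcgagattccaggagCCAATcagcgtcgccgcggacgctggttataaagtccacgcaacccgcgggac
All 3 windows held TGACG, the core of the X2 box, and ATTGG or its reverse complement, the core of the Y box. Both cores on either strand, in any order and at any spacing, occurred in 6.12% of 32851 RefSeq promoter windows of the same length. Counted from the start site, the X2 core began at -78 and the Y core at -53 in the B2m window. In the H2-D1 window they began at -101 and -76, with a reversed Y core at -53. In the Tap1 window the order was turned round, with the reversed Y core at -222 and the X2 core at -86. Of the 3, B2m alone matched GAAA, any 2 bases and GAAA again, the pattern searched for the interferon-stimulated response element. The match began at -139, and the pattern occurred in 2.98% of windows. Looser forms of the element were not searched, so a window without this pattern is not shown to lack the element. H2-D1 alone matched the exact letters searched for the kappa B site of enhancer A, the capitals that come first in its sequence. The match began at -171, and these letters occurred in 0.0852% of windows. Other forms of kappa B sites were not searched. None of the 3 held TTCNNNGAA, the gamma-activated site, which occurred in 7.02% of windows. No motifs overlapped in these windows. Letter matches describe the sequence and do not show that a factor was bound.

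B2m transcripts, which encode the light chain of every class I molecule, fell in the Lats1/2iΔLgr5 pylorus, and the size of the fall depended on which WT library it was set against. B2m (ENSMUSG00000060802, chromosome 2, 122147686 to 122153083, plus strand, GRCm38) had 7543 and 41028 reads in WT 1 and WT 2 and 5772 and 4870 reads in Lats1/2iΔLgr5 1 and 2. Divided by the authors' size factors, these became 9519 and 45251 in WT and 5226 and 3806 in Lats1/2iΔLgr5, called normalized counts from here on. WT 2 was far above the other libraries, WT 1 was 2.11-fold above the Lats1/2iΔLgr5 mean, and the groups did not overlap. The mean was 27385 ± 25266 in WT and 4516 ± 1004 in Lats1/2iΔLgr5 (SD, n = 2 each). On the log2 scale B2m changed by -2.60 ± 0.71 (SE), and the edgeR quasi-likelihood test gave an adjusted p of 0.0191.

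The heavy chain gene H2-D1 fell less on this scale. H2-D1 (ENSMUSG00000073411, chromosome 17, 35262730 to 35267499, plus strand) had 18427 and 54626 reads in WT and 17451 and 17171 reads in Lats1/2iΔLgr5. After normalization WT 1 had 23254, WT 2 had 60248, and Lats1/2iΔLgr5 1 and 2 had 15800 and 13421, with means of 41751 ± 26159 and 14610 ± 1683 (SD, n = 2 each). WT 2 again stood highest, and WT 1 lay closer to the Lats1/2iΔLgr5 libraries than to WT 2. The log2 fold change was -1.51 ± 0.44 (SE), with an edgeR adjusted p of 0.0209. Of the 2591 distinct 75-base windows in the annotated H2-D1 transcripts, 5.56% also occurred in a transcript of another gene, mostly H2-Q1, so a small share of its reads could be lost or divided in counting.

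Tap1 had the largest fall of the 4. Tap1 (ENSMUSG00000037321, chromosome 17, 34187553 to 34197225, plus strand) had 702 and 3567 reads in WT and 480 and 303 reads in Lats1/2iΔLgr5, which normalized to 885.9 (WT 1), 3934 (WT 2), 434.6 (Lats1/2iΔLgr5 1) and 236.8 (Lats1/2iΔLgr5 2). The means were 2410 ± 2155 and 335.7 ± 139.9 (SD, n = 2 each), with WT 2 far above WT 1 and no overlap. The log2 fold change was -2.85 ± 0.74 (SE), with an edgeR adjusted p of 0.0173. Its transport partner Tap2 (ENSMUSG00000024339, chromosome 17, 34203527 to 34216321, plus strand) had 379 and 1056 reads in WT and 321 and 343 in Lats1/2iΔLgr5, or 478.3 and 1165 normalized counts against 290.6 and 268.1 (means 821.5 ± 485.4 and 279.4 ± 16.0, SD, n = 2 each). The 2 WT levels of Tap2 were the higher ones, and the Lats1/2iΔLgr5 libraries lay close together. The log2 fold change of Tap2 was -1.56 ± 0.43 (SE), with an edgeR adjusted p of 0.0195. Tap1 overlaps the oppositely transcribed immunoproteasome gene Psmb9 by 212 bases at its start, and Tap2 overlaps the antisense genes Gm15821 and Gm20496. The windows shared with another gene were 2.40% for Tap1 (Psmb9) and 8.27% for Tap2 (mostly Gm15821), and no source used here says whether reads were counted by strand. B2m lies inside the oppositely transcribed gene Patl2 and shared 0 of its 786 windows with another gene's transcripts.

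**Figure D1:**
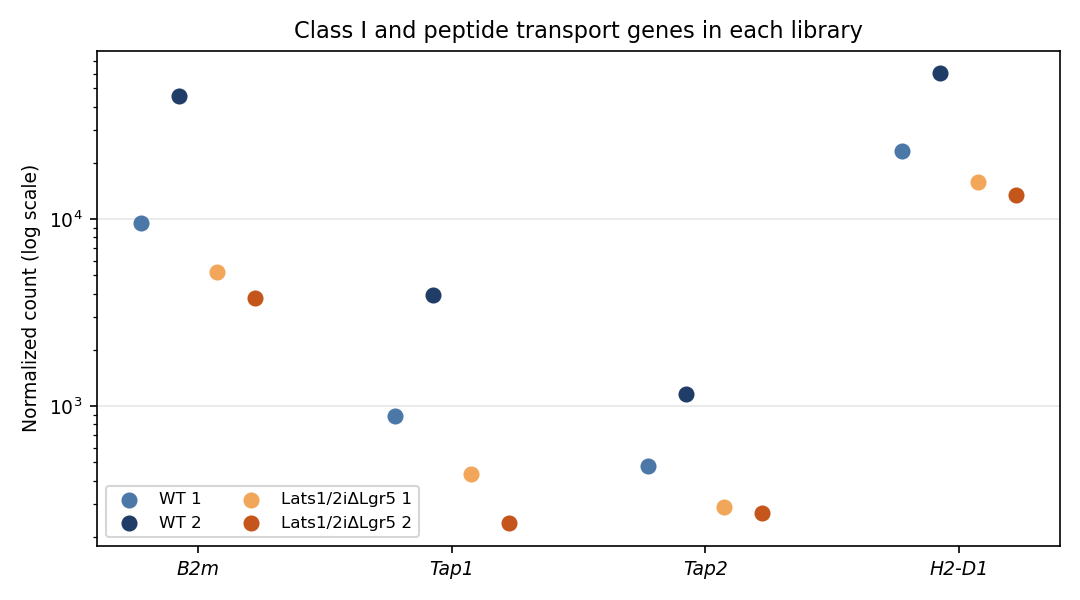
Normalized counts (vertical axis, log scale) of B2m, Tap1, Tap2 and H2-D1 (horizontal axis), with 1 point for each of the 4 libraries. WT 2 is the highest point for every gene (45251 for B2m), WT 1 is second, and Lats1/2iΔLgr5 2 is lowest (236.8 for Tap1).

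Because the table was selected for a difference, calls and separation carry little information about these genes. The authors' threshold was passed by 20.6% of the 13141 genes whose testing was inferred from the deposited p-values. Within the table edgeR called 99.9% of genes and the DESeq2 Wald test 2700 genes (100% after rounding), and in 57.1% both WT libraries lay above both Lats1/2iΔLgr5 libraries. All 4 genes passed in both respects, and nothing is read from that count. In the authors' deposited table the log2 fold changes, which are shrunken toward 0, were nearly equal: -1.25 for B2m, -1.30 for Tap1, -1.28 for Tap2 and -1.28 for H2-D1. The adjusted p in that table was 0.0473 for B2m and 0.0371 for Tap1, close to the threshold, and 0.00475 for Tap2 and 0.00268 for H2-D1. The deposited standard errors were 0.48 for B2m and for Tap1 and 0.37 and 0.35 for Tap2 and H2-D1. In sections of whole tissue, fewer cells carrying class I and less class I RNA per cell cannot be told apart.

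The gap between the WT libraries was the main source of spread. On the log2 scale, after adding 1 to the normalized count, WT 2 was above WT 1 by 2.25 for B2m, with a 95% exact binomial interval of 2.21 to 2.28 that covers counting error alone. The same gap was 2.15 (2.03 to 2.27) for Tap1, 1.37 (1.35 to 1.40) for H2-D1 and 1.28 (1.11 to 1.46) for Tap2. As ratios, WT 2 held 4.75 times the B2m, 4.44 times the Tap1, 2.59 times the H2-D1 and 2.44 times the Tap2 of WT 1. The intervals of B2m and Tap1 overlapped each other and lay above those of H2-D1 and Tap2, which also overlapped each other. There is 1 library on each side, so this gap has no test.

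All 4 genes had a gap of at least 1 on the log2 scale with WT 2 higher. This held for 4.33% of the 2701 genes in the table and 6.09% of its 1543 lower genes. B2m ranked 19 and Tap1 22 among all 2701 genes by this gap, H2-D1 62 and Tap2 74. The median gap over the table was 0.09, with quartiles at -0.12 and 0.31. B2m and Tap1 also passed a gap of 2, which 0.963% of the genes did. The Lats1/2iΔLgr5 libraries were closer: library 1 was above library 2 by 1.37-fold for B2m, 1.84-fold for Tap1, 1.08-fold for Tap2 and 1.18-fold for H2-D1. Library 2 was the lower for all 4, as it was for 53.4% of the table and for 1103 of the 1543 lower genes. None of the 4 reached a gap of 1 there, which 3.33% of the table did in either direction.

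**Figure D2:**
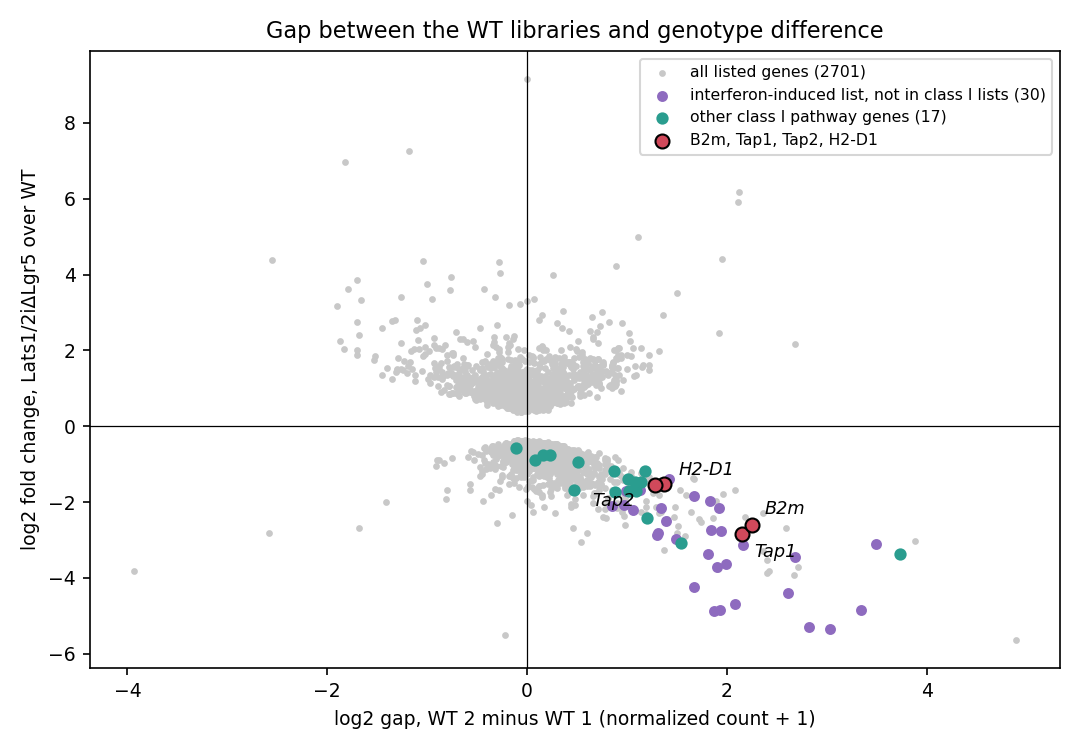
For each gene of the table, the log2 gap between WT 2 and WT 1 (horizontal axis) and the edgeR log2 fold change of Lats1/2iΔLgr5 over WT (vertical axis), with class I and interferon-induced genes coloured. B2m (2.25, -2.60) and Tap1 (2.15, -2.85) lie to the lower right of Tap2 (1.28, -1.56) and H2-D1 (1.37, -1.51); WT 2 enters both axes.

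Each WT library was then set against Lats1/2iΔLgr5 on its own. With WT 2 left out, the log2 fold changes were -1.08 for B2m (edgeR adjusted p = 0.00402), -1.40 for Tap1 (0.00943), -0.78 for Tap2 (0.0361) and -0.67 for H2-D1 (0.0161), in a fit that called 80.7% of the table and assumed that the lone WT library varies like the others. With WT 1 left out they were -3.32, -3.55, -2.06 and -2.04, with 90.9% of the table called. With the authors' size factors the direction was the same against either WT library, and the size was not. Other factors were not run with a library left out. By share of the reads over the table's genes, H2-D1 was at 0.129% in WT 1 and at 0.130% and 0.121% in Lats1/2iΔLgr5 1 and 2. The shares of B2m, Tap1 and Tap2 were higher in WT 1 than in both Lats1/2iΔLgr5 libraries. In normalized counts WT 1 exceeded the Lats1/2iΔLgr5 mean 2.64-fold for Tap1, 2.11-fold for B2m, 1.71-fold for Tap2 and 1.59-fold for H2-D1. WT 2 exceeded it 11.7-fold, 10.0-fold, 4.17-fold and 4.12-fold. Without Lats1/2iΔLgr5 1, the edgeR adjusted p was 0.0605 for B2m, 0.0666 for Tap2 and 0.0654 for H2-D1, and 0.0474 for Tap1, with 55.6% of the table called. Without Lats1/2iΔLgr5 2 it was 0.0929, 0.0865, 0.0915 and 0.0970 for B2m, Tap1, Tap2 and H2-D1, with 0.185% of the table called. TMM factors computed from the table raised the log2 fold changes of the 4 genes, with a shift of 0.362 between genotypes in the mean log2 factors. With them Tap2 and H2-D1 were at -1.18 and -1.14, and neither passed the threshold (edgeR adjusted p = 0.05 after rounding and 0.0556). That fit called 61.0% of the table. With DESeq2 factors computed from the table neither passed either, and 58.9% of the table was called.

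**Figure D3:**
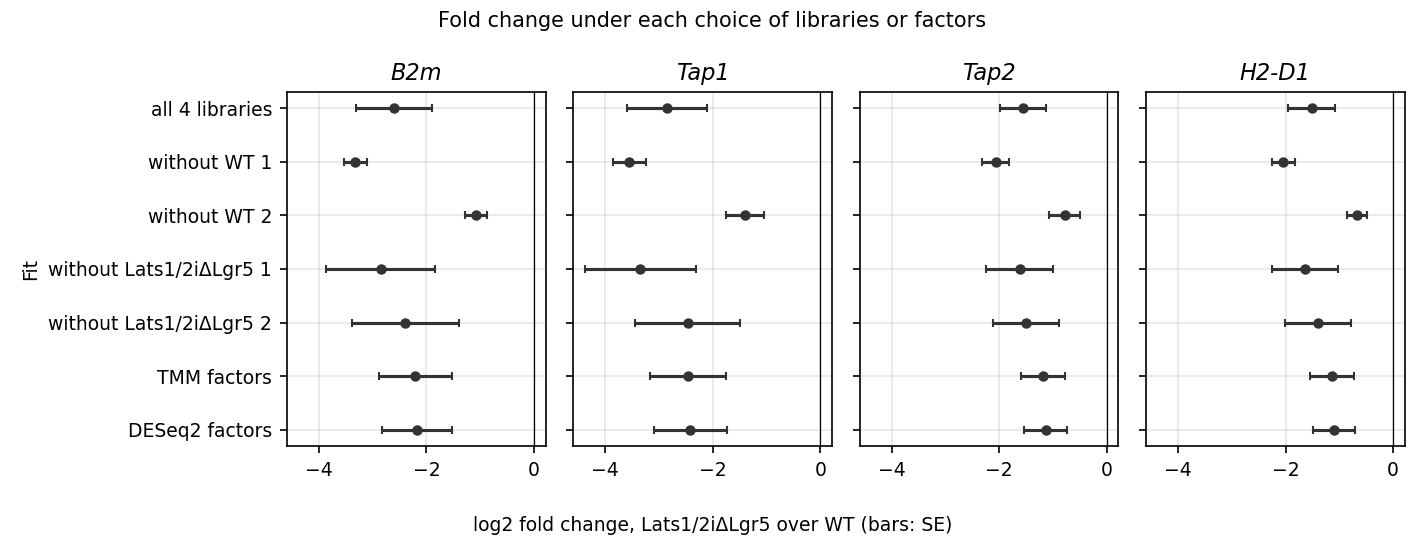
The edgeR log2 fold change of Lats1/2iΔLgr5 over WT (horizontal axis, bars are SE) for each gene under 7 fits (vertical axis). All points are below 0; leaving out WT 2 moves B2m from -2.60 to -1.08 and Tap1 from -2.85 to -1.40.

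Ratios between genes of the same library do not depend on size factors, and 6 such ratios were computed. Per kilobase of annotated exon, B2m counts were 1.23 and 2.25 times those of H2-D1 in WT 1 and WT 2 and 0.992 and 0.851 times in Lats1/2iΔLgr5 1 and 2. The B2m transcript was thus highest relative to that of H2-D1 in WT 2, and the ratio in Lats1/2iΔLgr5 1 was close to 1. H2-D1 is not the only heavy chain gene, so this is not a ratio of light chain to all heavy chains. For the transporter, Tap1 counts per kilobase were 1.28 and 2.33 times those of Tap2 in WT and 1.03 and 0.610 times in Lats1/2iΔLgr5. The groups did not overlap in either ratio, and the exact two-sided permutation p was 0.333 for each, the smallest that 2 against 2 libraries allows. Set against Pdia3, a disulfide isomerase of the peptide-loading complex, H2-D1 had per-kilobase ratios of 0.776 and 2.17 in WT and 0.753 and 0.755 in Lats1/2iΔLgr5. On that ratio WT 1 was near the Lats1/2iΔLgr5 libraries and WT 2 stood alone. B2m per Pdia3 was 0.952 and 4.89 in WT and 0.747 and 0.642 in Lats1/2iΔLgr5, and Tap1 per Pdia3 was 0.0139 and 0.0668 against 0.00975 and 0.00627, so for these genes WT 1 lay further above the Lats1/2iΔLgr5 libraries. Tap2 per Pdia3 was 0.0109 and 0.0286 in WT and 0.00945 and 0.0103 in Lats1/2iΔLgr5. These 4 ratios to Pdia3 had the same exact permutation p of 0.333. Pdia3 itself had 36488 and 33784 normalized counts in WT and 25542 and 21638 in Lats1/2iΔLgr5, and was the class I pathway gene with WT 2 below WT 1.

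**Figure D4:**
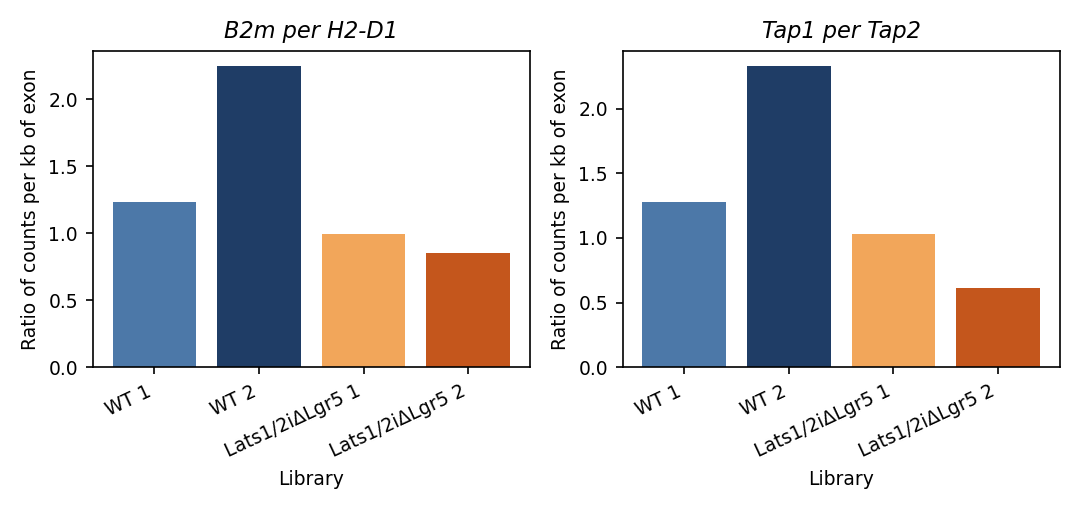
Ratio of counts per kilobase of exon (vertical axis, from 0) for B2m over H2-D1 and for Tap1 over Tap2 in each of the 4 libraries (horizontal axis). WT 2 has the tallest bars (2.25 and 2.33), and Lats1/2iΔLgr5 2 the shortest (0.851 and 0.610).

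The rest of the route was read from lists of 17 heavy chain genes, 11 light chain, transport and loading genes, 6 immunoproteasome and activator genes and 24 genes of class I transcription and interferon signalling, 58 in all. Of these, 21 were in the table, which holds 20.6% of the genes tested. That share is also the background for the count of each of these lists below. All 21 were lower in Lats1/2iΔLgr5, where 57.1% of the whole table was lower, and the others have no values here. Their median log2 fold change was -1.51, against -0.73 over the 1543 lower genes of the table. WT 2 exceeded WT 1 in 20 of the 21, against 62.0% of the table and 1171 of the 1543 lower genes. It did so by at least 1 log2 unit in 13, against 6.09% of the lower genes. The median gap was 1.08. Without WT 2 the median was -0.80, against -0.65 over the lower genes, and 18 of the 21 had an edgeR adjusted p under 0.05, in a fit that called 44.9% of the table lower. Without WT 1 all 21 were called, against 52.4% of the table called lower. Without Lats1/2iΔLgr5 1, 12 of the 21 were called, against 32.4%, and without Lats1/2iΔLgr5 2, 0 of the 21, against 0.0370%, with 9 at an unadjusted edgeR p under 0.05. With TMM or DESeq2 factors 11 of the 21 were called lower, against 491 and 433 genes called lower in a table with 1543 lower genes. Without the 4 genes already described, the 17 others had a median log2 fold change of -1.47 and a median gap of 1.01.

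Among heavy chains, 6 of 17 were in the table. H2-T22, H2-T23, H2-T24, H2-T10 and H2-M2, nonclassical class I genes, joined H2-D1. H2-T23, which encodes the ligand Qa-1 of inhibitory NK receptors, fell from 4298 and 7854 normalized counts in WT to 3224 and 2111 in Lats1/2iΔLgr5. H2-T22 had 1659 and 3661 normalized counts in WT and 1048 and 878.5 in Lats1/2iΔLgr5, although 39.97% of its 75-base windows occur in other genes. H2-T10 rested on WT 2 alone, with 27.8 and 381.6 normalized counts in WT and 20.8 and 18.8 in Lats1/2iΔLgr5. Its log2 fold change of -3.37 became -0.49 without WT 2 (edgeR adjusted p = 0.495). The related gene H2-Q5, outside the lists and named after its values were seen, had 21.5 and 329.8 normalized counts in WT and 23.5 and 19.5 in Lats1/2iΔLgr5. Shared windows were 35.98% for H2-T10 and 21.23% for H2-Q5, so the counts of both are uncertain.

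Among loading genes, 5 of 11 were in the table. Tapbp, which encodes tapasin, fell from 4000 and 8052 normalized counts in WT to 2518 and 2092 in Lats1/2iΔLgr5, a log2 fold change of -1.39 ± 0.34 (SE) with an edgeR adjusted p of 0.0160, and -0.80 without WT 2. Its WT gap was 2.01-fold, smaller than that of all 4 genes described above. The proteasome activator subunits Psme1 and Psme2, which open the proteasome core, were the 2 of 6 members of their list in the table. Psme2 had 3621 and 7653 normalized counts in WT and 2353 and 1693 in Lats1/2iΔLgr5, and Psme1 1870 and 4230 against 1418 and 1263; 22.86% of the Psme2 windows also occur in Psme2b. Their log2 fold changes were -1.48 and -1.19, and -0.84 and -0.48 without WT 2.

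Among transcription and signalling genes, 8 of 24 were in the table. Irf7 fell by 3.09 and Irf9 by 1.68 on the log2 scale; both encode transcription factors of the type I interferon response. Stat2, a transcription factor activated by the type I interferon receptor, had a log2 fold change of -1.70. Irf9 kept more of its fall without WT 2 (-1.43), and its WT libraries were closer, at 1387 and 1921 normalized counts. Jak2 and Ifngr2, a kinase and a receptor chain of interferon gamma signalling, had log2 fold changes of -0.75 and -0.76, with WT ratios of 1.17 and 1.12. Rfxank, a subunit of the RFX complex that binds the X box, had -0.88 and a WT ratio of 1.06. Irf8, a myeloid and interferon-induced factor, had 379.8 and 540.4 normalized counts in WT and 268.0 and 207.1 in Lats1/2iΔLgr5, and its edgeR adjusted p without WT 2 was 0.0694. Irf8, H2-T10 and H2-T24 were the 3 of the 21 that missed the threshold without WT 2. The WT gap ran from 0.08 for Rfxank to 0.51 for Irf8 among Rfxank, Ifngr2, Jak2, Irf9 and Irf8, below that of Tap2, the smallest of the 4 genes.

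**Figure D5:**
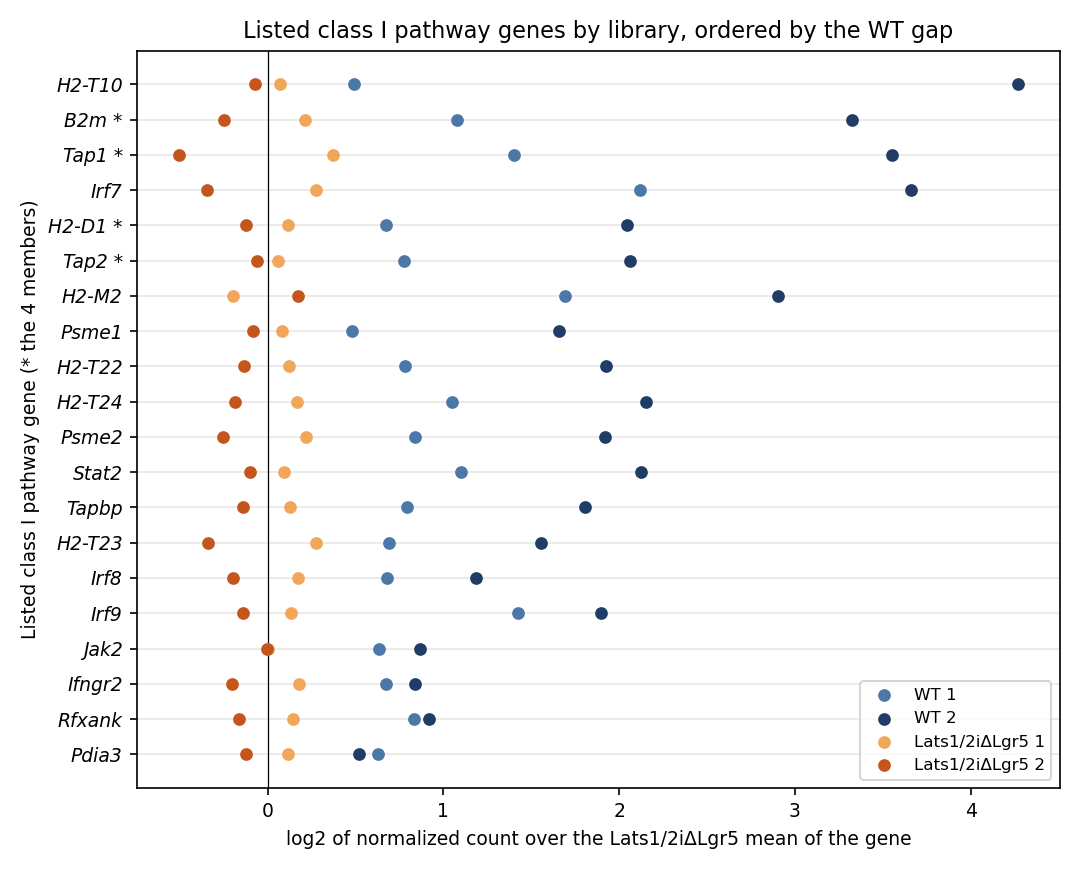
Normalized count of each of 20 class I pathway genes in the table (vertical axis), as log2 of its ratio to the gene's Lats1/2iΔLgr5 mean (horizontal axis), ordered by the WT gap. WT 2 stands far to the right for H2-T10, B2m and Tap1 and next to WT 1 for Jak2, Ifngr2, Rfxank and Pdia3.

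The 10 genes whose profile over the 4 libraries was nearest the members' mean profile were Samhd1, Tgtp2, Psme2b, Cd274, Sp100, Gbp7, Glp2r, Uba7, Il18bp and Parp12. Likeness was the root mean square difference of mean-centred log2 values, among 2666 genes with a base mean of at least 50; it ran from 0.10 for Samhd1 to 0.22 for Parp12, with a median of 0.94 over all those genes. B2m, Tap1, Tap2 and H2-D1 were themselves 0.24, 0.39, 0.31 and 0.30 from their own mean. Samhd1, which encodes a dNTP hydrolase, had 2711 and 8470 normalized counts in WT and 1339 and 976.2 in Lats1/2iΔLgr5. Cd274, which encodes the T cell inhibitory ligand PD-L1, had 135.0 and 332.0 in WT and 57.9 and 49.2 in Lats1/2iΔLgr5. Uba7, the activating enzyme for ISG15, had 1310 and 3149 against 758.7 and 545.5. The count of Psme2b is uncertain, since 60.16% of its 75-base windows also occur in Psme2. With 4 libraries, 1 of them far from the rest, likeness is mostly likeness in WT 2.

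The genes of an interferon-induced list moved with the class I genes. The list does not hold every such gene: Ifitm2, outside it and named after its value was seen, had a log2 fold change of 1.22. Of 43, 32 were in the table, which holds 20.6% of the genes tested, and all 32 were lower, as were 57.1% of the table. Their median log2 fold change was -2.91 with all libraries and -1.66 without WT 2, against -0.73 and -0.65 over the lower genes of the table. The median WT gap was 1.82, and 28 of the 32 had a gap of at least 1, including Rtp4, Gbp2 and Irgm2, against 6.09% of the lower genes of the table. Summed over the 32, WT 1 had 24022 and WT 2 had 71028 normalized counts, and Lats1/2iΔLgr5 1 and 2 had 8234 and 6049. Irf7 is in this list and in the class I lists. Of the 117 genes with a WT gap of at least 1 and WT 2 higher, 40 (34.2%) were in class I or interferon-induced lists. These lists have 51 of the 2701 genes of the table. They were chosen with earlier results of these data known, so the overlap is a description only.

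Most of the genes in the table between H2-K1 and H2-M2 on chromosome 17 outside the class I lists had a WT gap under 1. That interval (33996017 to 37483552) holds 173 annotated protein-coding genes, and 35 genes of any type there were in the table. Of 8 from the class I lists, 7 had a WT gap of at least 1. Of the 27 others, 6 did, against 4.33% of the whole table. These were Btnl4, Aif1, H2-Q5, H2-T-ps, Trim15 and Trim40, named after their values were seen. Of these, H2-Q5 and H2-T-ps belong to the class I heavy chain family, although the lists do not hold them. The 27 had a median gap of 0.33, above the 0.09 of the whole table. Of the 27, 17 were lower in Lats1/2iΔLgr5, as were 57.1% of the table.

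Markers of other cell types could bear on class I levels, since immune and endothelial cells carry much class I. None of 12 MHC class II genes, 8 smooth muscle markers, 16 markers of T and NK cells or 10 of the B lineage was in the table, so their levels were not analysed here. Of 15 macrophage and dendritic cell markers, Aif1 had 87.1 and 178.7 normalized counts in WT and 50.7 and 42.2 in Lats1/2iΔLgr5, and Cd14 had 249.9 and 219.5 in WT and 570.4 and 563.5. Summed, they stood at 336.9 and 398.2 in WT and 621.1 and 605.7 in Lats1/2iΔLgr5. Of 10 endothelial markers, Kdr alone was in the table, at 461.9 and 698.2 in WT and 334.1 and 338.4 in Lats1/2iΔLgr5. Of 10 fibroblast markers, Col3a1, Col1a2 and Mmp2 summed to 10068 and 13681 in WT and 7414 and 6332 in Lats1/2iΔLgr5. Kdr and the fibroblast sum thus moved the same way as the class I genes, the macrophage and dendritic cell sum moved the opposite way with its members Aif1 and Cd14 in disagreement, and the part of these cell types in the result was not tested. Gastric epithelium was present in every library: 8 of 14 markers were in the table, against 20.6% of genes tested, and all 8 were lower, as were 57.1% of the table. Their median log2 fold change of -0.82 was near the -0.73 of all lower genes and their median WT gap was 0.21, with Gkn2 at 2237927 and 2345552 normalized counts in WT and 1185961 and 939248 in Lats1/2iΔLgr5. The targeted gene Lats1 had 2152 and 1974 normalized counts in WT and 942.5 and 1129 in Lats1/2iΔLgr5; Lats2 was not analysed here. Reads over the table's genes summed to between 13413629 and 17689207 per library.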

How the data were processed

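Poly(A) RNA libraries were strand-marked and read as 75 bp pairs. The submitters' processing notes name GRCm38, TopHat2 2.1.1, HTSeq and DESeq2, without settings or a strand option. The deposited table holds whole-number read counts per gene. Per the file headers it also holds a base mean from the authors, a signal that averages each gene's normalized counts, log2 fold change with standard error, test statistic (a score), p-value and adjusted p-value.

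The authors' size factors were recovered from base means and counts (0.792, 0.907, 1.10 and 1.28 for WT 1, WT 2, Lats1/2iΔLgr5 1 and 2), and rebuilt base means deviated by at most 0.0119%. Normalized counts are counts divided by these. GENCODE M21 named 2698 of 2701 IDs, and 1 was added to deposited starts. All genes of the table were fitted with edgeR 4.0.16 (quasi-likelihood test, genotype as the factor, no low-count filter, Benjamini-Hochberg adjustment over the table, threshold 0.05), tested on simulated data. The SE is the log2 fold change divided by the square root of F. Alternatives were TMM and DESeq2 1.42.0 factors, the DESeq2 Wald test, filterByExpr, a replicate block and leaving out each library. A gap is the log2 difference of normalized counts plus 1. Shared windows are exact 75-base matches, on either strand, between GENCODE transcripts. Promoter sequences are from RefSeq, GRCm38.p6.

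Named are the members, all class I pathway genes in the table but 1 that is not reported here, up to 4 genes by smallest deposited adjusted p of each further list (examples of these are printed), Lats1, and the 10 nearest profiles at a base mean of at least 50. The members and lists were chosen with earlier results of these data known.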

Additional observations from a re-analysis of the deposited data

How the results depend on the processing

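The log2 fold changes and WT gaps of B2m, Tap1, Tap2 and H2-D1 kept their direction under the alternatives run for them; ratios between genes were not recomputed. Without WT 2 the median log2 fold change of the 2 macrophage and dendritic cell markers went from -0.12 to 0.14, and the log2 fold change of H2-Q5 went from -3.03 to 0.00. DESeq2 factors computed from the table shifted the mean log2 factors between genotypes by 0.406. With them Tap2 was at -1.13 and H2-D1 at -1.09 (edgeR adjusted p = 0.0524 and 0.0549). With TMM factors Tap2 and H2-D1 were at -1.18 and -1.14. These factors also lowered the number of genes called from 2699 to 1648 (TMM) and 1590 (DESeq2), and class I pathway genes called lower from 21 to 11 with either. Both assume that most genes do not change, in a table of genes selected for change. The WT gap of B2m was 2.17, 2.15 and 2.14 with TMM factors, DESeq2 factors and library totals over the table, and that of H2-D1 1.29, 1.27 and 1.26.

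Leaving out 1 library at a time, log2 fold changes ranged from -3.32 to -1.08 for B2m, -3.55 to -1.40 for Tap1, -2.06 to -0.78 for Tap2 and -2.04 to -0.67 for H2-D1. Genes called ranged from 5 to 2454 and class I pathway genes called lower from 0 to 21. The fewest were without Lats1/2iΔLgr5 replicate 2, where edgeR left 9 of the 21 at an unadjusted p under 0.05, and 12 of the 21 were called without Lats1/2iΔLgr5 replicate 1. DESeq2 was not run on 3 libraries.

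The shared replicate numbers are not stated to pair libraries. With the replicate block, edgeR called 2538 genes, and B2m, Tap1, Tap2 and H2-D1 had log2 fold changes of -2.22, -2.54, -1.42 and -1.36. The WT and Lats1/2iΔLgr5 differences between numbers correlated at -0.162 across genes, and the crossed pairing, added after seeing the data, called 2661. With 2 libraries per genotype, WT spread limits the precision of all 4 genes more than depth does.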
